A study of Mus musculus with 2 samples.

Results

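The implantation serine proteinases, the trypsin inhibitor Spink1, and a set of membrane-bound serine proteinases with their inhibitors were examined in mouse implantation sites, pieces of pregnant uterus that each contain a conceptus with its surrounding decidua and uterine wall. The 8 genes (Prss28, Prss29, Spink1, Prss8, Tmprss2, St14, Spint1 and Spint2) were taken by gene symbol, and they had 12 of the 22626 probe sets of the array, and 8 of its 12393 genes with a single symbol. The group was chosen by gene family with the log2 ratios of Cbs null over control on these arrays already known, above all those of Prss28, Prss29 and Spink1, so the differences below describe the members and support nothing further. RNA came from 4-month-old females of a mixed C57Bl/6J X OLA129 background on day 8 of pregnancy, with 1 Affymetrix array for the control genotype and 1 array for females homozygous for Cbs deficiency, called Cbs null below. Cbs encodes cystathionine beta-synthase, which condenses homocysteine with serine. The question of the study was which transcripts in implantation sites differ when this enzyme is absent. Neither the genotype of the conceptus, nor the deleted part of Cbs, nor the number of animals behind an array is given in the sources used here. Since each genotype had a single array, no difference had a replicate check and no test between genotypes could be made. In whole sites, more cells of a type and more RNA per cell cannot be told apart.

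Prss28 and Prss29 are also known as implantation serine proteinases 1 and 2. They are trypsin-like enzymes that uterine glands secrete around the time the embryo attaches. Spink1, named Spink3 in older mouse work, is a Kazal-type inhibitor that blocks trypsin and is best known from the exocrine pancreas. The other members act at the surface of epithelial cells, where matriptase (St14) and prostasin (Prss8) form a proteolytic cascade, and where the Kunitz-type inhibitors encoded by Spint1 and Spint2 restrain matriptase and related enzymes.

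Prss28, Prss29 and Spink1 were much higher on the Cbs null array, and the membrane-bound proteinases and inhibitors differed far less. A signal limit of 70.5, the median over all probe sets of the mean of both arrays, was used to set dim probe sets aside. It kept 11 of the 12 member probe sets, all 11 of them with both signals at or above the limit, and it kept 7079 genes in all. Every member gene was represented, and 3 of the 8 were at least 2-fold higher, against 0.622% of all kept genes. None of the members was at least 2-fold lower, against 0.283% of kept genes. All 11 kept member probe sets had a log2 ratio of Cbs null over control above 0, as did 52.9% of all kept probe sets. The median log2 ratio was 0.83 over the 8 member genes and 0.02 over all kept genes.

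**Figure D1:**
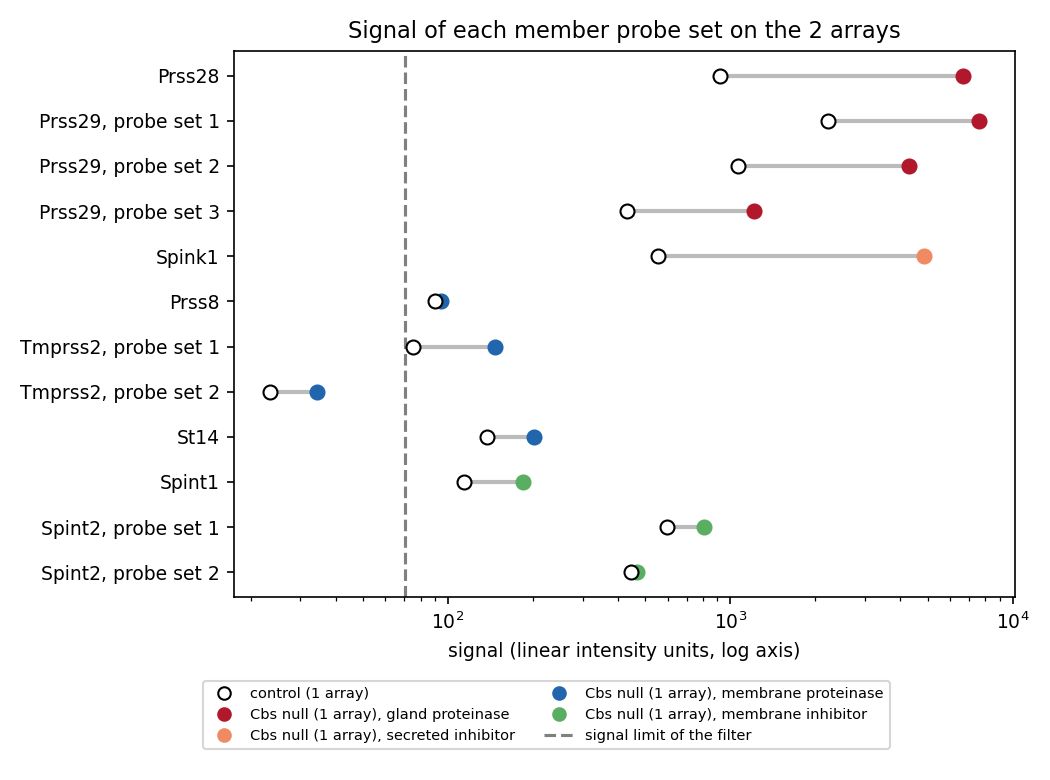
Signal of each member probe set (linear intensity on a log axis) on the control array (open circles) and the Cbs null array (filled circles, coloured by role), 1 array each. The 5 probe sets of Prss28, Prss29 and Spink1 have wide gaps between the arrays, whereas Prss8 and the dimmer probe set of Spint2 have nearly equal signals. The dashed line is the limit of 70.5.

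Of the gland proteinases, Prss28 read 918.9 on the control array and 6692.4 on the Cbs null array. It was 7.28-fold higher in Cbs null sites, a log2 ratio of 2.86 that ranked 4 among 7079 kept genes. This gene has a single probe set on the array, so no second probe set repeats the value. Prss29 has 3 probe sets. The brightest read 2220.1 in control against 7620.0 in Cbs null, which is 3.43-fold higher. The next read 1069.2 and 4286.8, which is 4.01-fold higher. The dimmest read 432.5 and 1217.2, which is 2.81-fold higher. All 3 probe sets of Prss29 were thus higher in Cbs null, and their log2 ratios ran from 1.49 to 2.00, a spread of 0.51. For scale, the brightest pair of probe sets of a gene was compared over 2284 genes with several kept probe sets. The log2 ratios of such a pair differed with an SD of 0.30. That SD is for a pair, whereas the spread of 0.51 is over 3 probe sets. The brightest pair of Prss29 had 1.78 and 2.00. The log2 ratio of Prss28 exceeded that of the brightest Prss29 probe set by 1.09. Whether the probe sets of these related genes take up each other's transcript was not tested, and the brightest one of Prss29 carries a mark in its identifier that it may match several transcripts.

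Prss28 and Prss29 lie next to each other on chromosome 17 in the RefSeq annotation, with no protein-coding gene or pseudogene between them. Their promoters are shown because these neighbours were both higher, and because 2 stretches of 15 bases in these promoters have the same letters. Each line gives the 250 bases before the annotated start, from RefSeq on GRCm38.p6, at chr17:25308396-25308645 for Prss28 and chr17:25318404-25318653 for Prss29, both on the plus strand. Capitals mark shared runs of at least 8 bases in a global alignment. Shared stretches that this alignment split or did not set side by side are not marked, so the lines share more than the capitals show.
Prss28: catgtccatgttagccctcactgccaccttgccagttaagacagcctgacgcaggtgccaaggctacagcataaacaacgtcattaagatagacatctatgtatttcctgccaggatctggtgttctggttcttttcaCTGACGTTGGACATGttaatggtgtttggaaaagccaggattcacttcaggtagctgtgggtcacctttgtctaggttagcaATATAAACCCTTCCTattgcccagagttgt
Prss29: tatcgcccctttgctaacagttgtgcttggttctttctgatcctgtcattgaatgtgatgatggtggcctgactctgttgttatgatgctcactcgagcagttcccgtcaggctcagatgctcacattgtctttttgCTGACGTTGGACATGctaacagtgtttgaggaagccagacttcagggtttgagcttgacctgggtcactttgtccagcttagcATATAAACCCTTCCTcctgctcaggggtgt
The alignment had 162 identical positions among 259 columns, or 62.5%. Both marked runs are 15 bases long. The one nearer the start begins at position -30 in both genes and holds TATAAA, the letters of a TATA box, at position -29 in both. The other begins at -112 in Prss28 and -113 in Prss29 and holds TGACGT, the letters of a half-site for cyclic AMP response element binding proteins. On either strand, TATAAA occurs in 12.4% and TGACGT in 6.47% of all 32851 promoter windows of the same length. Prss28 has a further TGACGT on the other strand at -173. AGAACA, the half-site letters shared by progesterone and glucocorticoid receptors, occurs once in the Prss28 window, on the other strand at -129, and not in that of Prss29, against 16.1% of all windows. For forkhead factors, only the letters TGTTTAC were searched. They are found in 3.17% of windows and occur in neither of the pair. The Prss28 window does hold TGTTTAT on the other strand, as ATAAACA in the line above, which differs from TGTTTAC only in its last letter. This and other variants were not searched, so the absence of TGTTTAC does not show that forkhead letters are absent. The 4 motifs searched do not overlap one another in either window. In local alignments against the 32850 other windows, each of the pair had the other as its best match, with a score of 63 against 18 for the next window for Prss28 and 20 for Prss29. Such matches describe letters and do not show that a factor binds. Windows were found for 5 of the 8 members. None of these 4 motifs occurs in the first listed window of Tmprss2, Spint1 or Spint2, and any further window of these genes was not searched. Spink1, Prss8 and St14 had no entry.

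Genes that flank Prss28 and Prss29 showed no difference of this size. The 5 nearest genes with a probe set on each side had log2 ratios between -0.21 and 0.40 once all values below the 25th percentile of both arrays, a floor of 14.3, were raised to it, and 8 of these 10 neighbours lay under the signal limit. On the far side of Prss29, the mast cell tryptase gene Tpsab1 read 38.4 in control and 48.0 in Cbs null. Tpsb2, another tryptase, read 31.1 and 27.2. On the other side, Baiap3 had the highest of these ratios, but its signals were dim, at 9.1, under the floor, and 18.9.

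**Figure D2:**
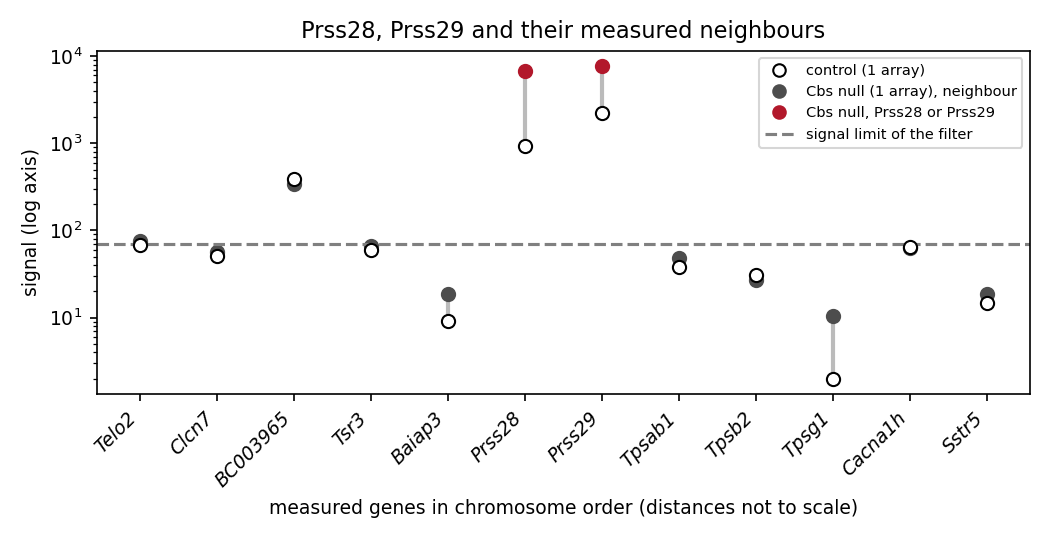
Signal (log axis) of Prss28, Prss29 and the 5 nearest genes with a probe set on each side, in chromosome order with distances not to scale, on the control array (open circles) and the Cbs null array (filled circles). Prss28 and Prss29 stand far above the dashed limit of 70.5 and have wide gaps between the arrays, whereas most neighbours lie under the limit, the widest gap among them being that of Tpsg1, at 2.0 and 10.4.

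Other tryptase-like relatives of the pair gave little signal. Of 18 such genes, 10 were on the array and none passed the limit. Their highest signal on either array was 48.0, that of Tpsab1 in Cbs null. Among them, 5 lay under the floor of 14.3 on both arrays. The signals of the 10 genes summed to 143.1 in control and 148.0 in Cbs null.

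Spink1, the secreted inhibitor, read 556.3 on the control array and 4853.2 on the Cbs null array. It was 8.72-fold higher, and its log2 ratio of 3.12 ranked 2 among the kept genes. Like Prss28 it rests on a single probe set. The ratio of Spink1 exceeded that of Prss28 by 0.26 on the log2 scale, beside an SD of 0.30 between probe sets of a gene. That SD does not measure variation between animals or between different genes, so it cannot decide whether these ratios differ. Most markers of pancreatic acinar cells, the best known source of Spink1, were under the floor of 14.3. Of 17 such genes on the array 11 were under it on both arrays, among them Cpa1, a carboxypeptidase, at 1.5 in control and 1.0 in Cbs null, and Ctrb1, chymotrypsinogen, at 3.7 and 2.8. The single one past the limit, the elastase gene Cela1, read 86.7 in control and 61.6 in Cbs null. Of the other markers, the brightest were Cela3b, another elastase gene, at 71.5 and 53.8, and Bhlha15, a transcription factor of secretory cells, at 54.0 and 71.6. No marker was listed at 0, and the signals of the list summed to 311.4 in control and 301.8 in Cbs null.

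Among the membrane proteinases, Tmprss2 came closest to a 2-fold difference. Tmprss2 encodes a transmembrane serine proteinase of epithelial cells. Its brighter probe set read 75.2 in control against 146.5 in Cbs null, which is 1.95-fold higher and a log2 ratio of 0.96. The dimmer one, under the limit, read 23.4 and 34.4, which is 1.47-fold higher. Both probe sets lay higher in Cbs null, but the brighter one was only just above the limit in control. St14, matriptase, read 137.9 in control against 202.1 in Cbs null, which is 1.47-fold higher. Prss8, prostasin, read 89.9 and 94.3, with a log2 ratio of 0.07. Prss8 was therefore nearly equal on the arrays, while its partner in the cascade was moderately higher in Cbs null.

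Spint1, the inhibitor also called hepatocyte growth factor activator inhibitor 1, read 113.9 in control against 184.3 in Cbs null, which is 1.62-fold higher. Spint2, its relative with a broader range of targets, had 2 kept probe sets that differed. The brighter read 595.2 in control against 805.0 in Cbs null, which is 1.35-fold higher. The dimmer read 446.9 and 469.2, 1.05-fold higher. Both probe sets carry a mark in their identifiers that they may match several transcripts. The spread between both, 0.37 in log2 ratio, was larger than the SD of 0.30 between probe sets of a gene, so the size of any difference in Spint2 is uncertain. Counting 1.5-fold as the limit, 5 of the 8 members were higher, against 2.46% of all kept genes. The 5 membrane-bound members had a median log2 ratio of 0.55.

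Dim genes scatter more than bright ones, so each member was also set beside kept genes of its own tertile of mean signal. The brightest tertile held 2360 genes, and 95% of them had log2 ratios from -0.41 to 0.46. No gene of that tertile had a higher ratio than Spink1, and 1 had a higher ratio than Prss28, namely Spink1. A higher ratio than that of Prss29 was found for 4, among them Spink1 and Prss28. Spint2, at 0.44, lay inside that range. In the dimmest tertile, with a range from -0.53 to 0.66, Tmprss2 at 0.96 and Spint1 at 0.69 lay outside and Prss8 inside. St14, at 0.55, lay just outside the range of the middle tertile, -0.42 to 0.54. Each range is the spread over genes on the same arrays and does not measure the noise of a gene. The members were chosen with their ratios known, so a place outside a range is a description only.

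**Figure D3:**
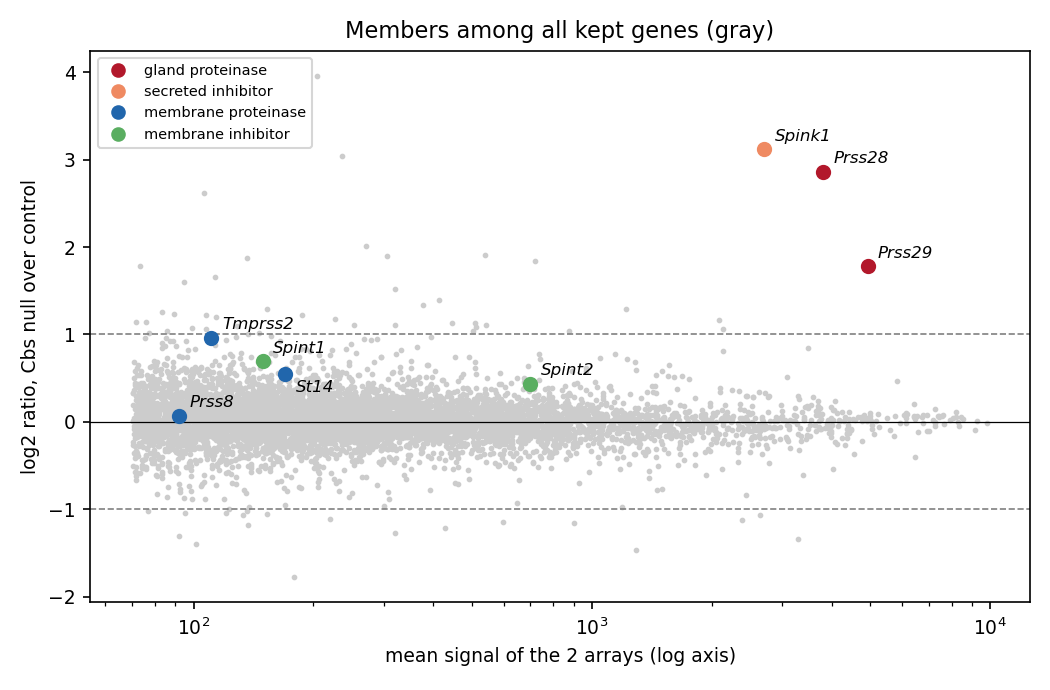
Log2 ratio of Cbs null over control against mean signal of both arrays (log axis) for 7079 kept genes (gray) and the 8 members (coloured by role), each gene by its brightest probe set, with dashed lines at 2-fold. Spink1, Prss28 and Prss29 stand at the bright end with log2 ratios of 3.12, 2.86 and 1.78, and the 5 membrane-bound members lie between 0.07 and 0.96.

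The other serine proteinases and inhibitors listed here did not show differences of this size, apart from Wfdc18. These lists do not hold every serine proteinase or inhibitor on the array. Of 19 other membrane serine proteinases 8 were on the array and 1 passed the limit, Tmprss4, at 550.6 in control and 646.5 in Cbs null. Of 35 other secreted serine proteinases 26 were on the array and 11 were kept. Among those, 7 had a log2 ratio above 0 and 4 below, none was 2-fold apart, and the median was 0.07. Prss23, a widely expressed proteinase, had -0.11, and Htra3, a proteinase of decidual stroma and placenta, had 0.59, from 1197.3 to 1797.6. Of 39 other inhibitors of the Kazal, Kunitz and WAP types 20 were on the array and 14 were kept, with 8 above 0, 6 below and a median of 0.02. Wfdc18, a small protein with a WAP domain, was the only one at least 2-fold higher, from 130.1 in control to 483.2 in Cbs null, 3.71-fold.

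Substrates and receptors of these enzymes were mixed. Of 18 such genes on the array 8 were kept, 4 with a ratio above 0 and 4 below, with a median of 0.12 and none 2-fold apart. F2r, a thrombin receptor that proteinases activate by cleavage, read 3024.3 in control and 2465.3 in Cbs null, a log2 ratio of -0.29. Epcam, an adhesion protein that matriptase can cleave, had 0.39. Of these 8 genes 1 had its control signal under the limit and 1 had its Cbs null signal under it. Among the genes set aside for a mean signal under the limit, ratios ran from -1.02 for Plaur to 0.62 for Cdcp1. Plaur read 90.2 in control and 44.5 in Cbs null, and Cdcp1 read 47.3 and 72.9.

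Epithelial markers were also higher on the Cbs null array, by less than the gland proteinases. Of 26 markers of uterine gland and luminal epithelium 25 were on the array and 18 were kept, 15 with a ratio above 0 and 3 below. Of all kept genes 55% had a ratio above 0. The median log2 ratio was 0.40, and the kept markers ran from -0.28 to 1.14, so none of these 18 reached the 1.78 of Prss29. Among the 7 markers under the signal limit, Muc1, a mucin of the epithelial surface, had 1.82, from 7.4 in control, under the floor, to 50.4, Tjp3, a tight junction protein, had 1.35, and Cxcl15, a chemokine of uterine glands, had the lowest ratio, -0.59, from 30.2 to 20.1. Krt8 and Krt18, keratins of simple epithelia, had 0.55 and 0.64, whereas Cdh1, E-cadherin, had -0.02. Foxa2, the transcription factor that marks uterine glands, was under the limit, at 42.1 in control and 57.5 in Cbs null. Lcn2, a secreted iron-binding defence protein, had 1.04. Calb1, a calcium-binding protein, had 1.14, but its control signal of 47.3 was under the limit, as was that of 1 other kept marker. The signals of the 25 markers summed to 6428.2 in control and 8116.4 in Cbs null, with none listed at 0.

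Relative to the epithelial median, Spink1 was higher by 2.72 on the log2 scale, Prss28 by 2.46 and Prss29 by 1.38. Tmprss2 exceeded it by 0.56, Spint1 by 0.29, St14 by 0.15 and Spint2 by 0.04, while Prss8 was below it at -0.33. The log2 ratios of the 3 secreted members thus lay above those of all 18 kept markers, and those of the 5 membrane-bound members fell within the range of the markers. The part of the epithelial share of a site in these differences was not tested.

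**Figure D4:**
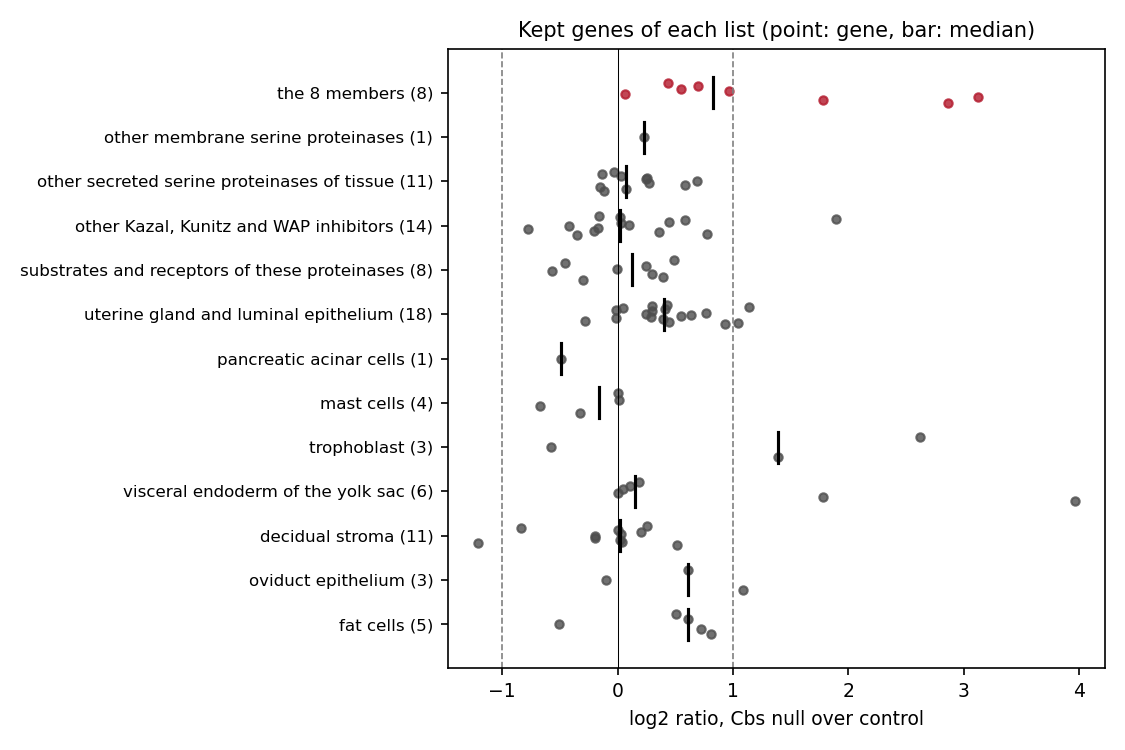
Log2 ratio of Cbs null over control for the kept genes of each list, with the number of kept genes in brackets, a point for each gene, a bar for the median and dashed lines at 2-fold. The 8 members (top) reach 3.12, and the epithelial markers centre on 0.40 with a highest value of 1.14.

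Markers of other cell types are given beside these values, and their part in the members' differences was not tested. Decidual stroma, which makes up most of a site at this stage, had 11 of 12 markers kept. Of these, 7 were above 0 and 4 below, with a median of 0.02. Bmp2, a growth factor of decidualization, was at least 2-fold lower, at -1.21. The other kept stromal markers ran from -0.84 for Tdo2 to 0.52 for Prl8a2. The summed signal of the stromal list was 23693.3 in control against 23605.2 in Cbs null. Mast cells, a source of tryptases, had 4 of 13 markers kept, 2 above 0 and 2 below, with a median of -0.16. Their summed signal was 980.8 and 819.2. The brightest, Gata2 and Hdc, had 0.01 and 0.00, and the other kept markers, Cpa3 and Kit, had -0.32 and -0.67. Fat cell markers had a median of 0.61 over 5 kept genes, 4 above 0 and 1 below. Fabp4 had 0.81, Adipoq 0.72 and Plin4 -0.50. Of the 5, 1 had its control signal under the limit, and the summed signal of the list was 2651.4 and 4326.8. Oviduct markers had 3 of 5 kept, 2 above 0 and 1 below, with Ovgp1, the oviduct glycoprotein, at 1.09, Pax8 at 0.61 and Tubb4b at -0.10, and a summed signal of 1661.6 and 2001.3. Trophoblast had 3 of 10 markers kept, 2 above 0 and 1 below, with Tpbpa at 1.39, Ceacam11 at 2.62 and Eomes at -0.58, and a summed signal of 505.1 and 956.8. Visceral endoderm had 6 of 12 kept with a median of 0.15 and a summed signal of 1983.7 and 2551.3. Afp had 3.96 and Ttr 1.78, and the other kept markers of this list ran from 0.00 to 0.19. Of the 5 probe sets of Afp and the 3 of Ttr, 1 each was kept. Ceacam11, Afp and Ttr were under the limit in control, so they were kept only through their Cbs null signal. No marker of these lists was listed at 0.

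Outside the group, the 3 genes with the ratio nearest to that of each secreted member were sought. Likeness here is the difference of log2 ratios, a single number per gene from the 2 arrays, so it says little about a shared pattern. Nearest to Prss28 and to Spink1 was Inmt, a methyltransferase, with a log2 ratio of 3.04, followed by Ceacam11. Next came Slc15a2, a peptide transporter, at 2.01 for Prss28, and Afp for Spink1. Nearest to Prss29 were Ttr, Sdc4, a heparan sulfate proteoglycan, at 1.84, and Cuedc1 at 1.88. The kept probe sets of Sdc4 ran from -0.38 to 1.84 and those of Cuedc1 from -0.01 to 1.88, unlike the 3 of Prss29. The control signals of Inmt and Cuedc1, 51.0 and 58.3, lay under the limit, as did those of Ceacam11, Afp and Ttr, whereas those of Prss28, Prss29 and Spink1 were all well above it.

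Cbs itself was dim on both arrays. Its brighter probe set read 30.3 in control and 23.8 in Cbs null, under the limit of 70.5. Since the deleted part is not known, these signals do not check the genotype.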

How the data were processed

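Total RNA of implantation sites was made into biotinylated cRNA from 2 microg and labelled with biotin for Affymetrix arrays, according to the labels' protocols. The authors deposited linear signal intensity, 1 value for each probe set on each array. GCOS 1.4 made these values, per the submitters' processing notes. Neither its algorithm, nor a genome build, nor detection calls are stated in the sources used here. Both arrays had a 2% trimmed mean of 200.08, so no further scaling was applied. The number of arrays limits the precision.

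Of 22690 probe sets, 64 controls were left out. The platform annotation gave 1 gene symbol for 20380, several for 691 and none for 1555; symbols were updated by gene identifier for 20351 through a RefSeq table of GRCm38.p6, used for names, gene order and promoter letters. Values under 14.3 were raised to it. Probe sets with a mean signal of at least 70.5 were kept, 11315 in all, and a gene was represented by its brightest one. Log2 ratios were taken as Cbs null over control without any test, and a 2-fold difference was the limit for counts. The named genes are all members, the 3 genes nearest in ratio to each secreted member, and from each list the genes at least 2-fold apart, up to 4, or else the 2 brightest, with the epithelial markers Foxa2, Epcam, Cdh1, Krt8 and Krt18 and the pancreatic markers Cpa1, Cela1 and Ctrb1. Tpsab1, Tpsb2, Tpsg1, Baiap3, Cela3b, Bhlha15, Pax8, Tubb4b, Eomes, Muc1, Tjp3 and Cxcl15 were named after their values were seen. So were Cpa3, Kit, Plin4, Plaur, Cdcp1, Prl8a2 and Tdo2. Members, lists and rules were chosen with earlier results of these data known, and the promoter motifs after the promoter sequences were seen. There were 11 alternatives. Scripts were tested on simulated data. Python 3.11 and Biopython 1.88 were used.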

Additional observations from a re-analysis of the deposited data

How the results depend on the processing

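The log2 ratio of each member stayed above 0 under every alternative that gave it a value, and the count of members at least 2-fold higher was 3 under all 11. Prss28 and Spink1 each have a single probe set well above the limit. Other floors, filters or choices of probe set could therefore not change their ratios. Only quantile normalization, median centring, loess and a pseudocount could. With no replicates, a value was taken as moved when it shifted by more than the SD of 0.30 between probe sets of a gene, and no member did. Prss28 ranged from 2.83 to 2.88, Spink1 from 3.09 to 3.15 and Prss29 from 1.76 to 2.00. Tmprss2 ranged from 0.85 to 0.96, Spint1 from 0.63 to 0.69, St14 from 0.51 to 0.55, Spint2 from 0.25 to 0.45 and Prss8 from 0.03 to 0.07. A filter at the 75th percentile removed Prss8, Tmprss2, St14 and Spint1, and leaving out probe sets marked as matching more than 1 transcript removed Spint2. The list medians moved by less than 0.30.

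Counts over all genes depended on the filter. There were 44 genes higher and 20 lower at 2-fold. With the filter at the 25th percentile or with none there were 149 higher and 79 lower, and at the 75th percentile 23 and 8. A pseudocount in place of the floor gave 13 lower. The medians of lists with under 5 kept genes were not recomputed. No paired analysis was possible because each genotype had 1 array. Signal close to background limits Tmprss2 and Prss8, the dimmest members.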
